A study of Mus musculus with 2 samples.

Results

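The genes described here encode the machinery of programmed cell death: caspases, the BCL2 family, death receptor adaptors, inhibitors of apoptosis and genes of the p53 pathway. The list holds 40 genes chosen by symbol, and each is represented by its brightest probe set, the group of array probes that reads a gene. Of the 40, 37 had a probe set, out of 12393 genes in all. Bax, Ripk1 and Trp53 had none in the tables used here and were not analysed here. RNA came from uterine epithelial cells of mice on day 4 of pregnancy. A control group, called Stat3 flox control in its title, was compared with a Stat3 knockout group, and each was read on 1 Affymetrix Mouse Genome 430A 2.0 array of pooled RNA (n = 3 for each sample in the design text). Both samples carry the same title, so the genotype label and the description separate them. The sources used here give no strain, age, Cre driver or promoter for the deletion. The label does not say in which cells Stat3 was deleted.

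Apoptosis ends in caspases, proteases that cut other proteins once they are activated. In the mitochondrial route, BH3-only proteins sense damage and BAX and BAK open the outer mitochondrial membrane unless pro-survival BCL2 proteins hold them back; released cytochrome c then assembles APAF1 into the apoptosome, which activates caspase-9. In the death receptor route, receptors such as FAS recruit FADD and caspase-8, with CFLAR as a brake, and RIPK1 and RIPK3 can lead to necroptosis instead. STAT3 is widely known as an activator of pro-survival genes, and the luminal epithelium of the rodent uterus dies by apoptosis around the implanting embryo after attachment.

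Values are MAS5 signals, the background-corrected brightness of a probe set on a linear scale, and a difference is the log2 ratio of knockout over control. Signals under a floor of 14.0, the 40th percentile of all signals, were set to it, and a ratio that touches the floor is a bound. With 1 array per group no difference has a replicate check, no p-value was computed, and the number of arrays limits the precision. The only error measured is the disagreement between probe sets of a gene, an SD of 0.28 log2 units per probe set over 2853 genes. It covers neither animals nor arrays. In bulk RNA, fewer cells of a type and less RNA per cell cannot be told apart. The targeted gene was lower in the array labelled knockout: Stat3 had signals of 582 (control) and 186 (knockout), 3.12-fold lower. Whether its probe set lies in the deleted part was not determined here.

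Most of the death genes with a ratio differed by less than 2-fold between the arrays, as did most genes. Of the 34 with a ratio, 29 lay within 2-fold, 3 (Casp4, Bbc3 and Cflar) were higher by 2-fold or more in the knockout, and 2 (Ripk3 and Apaf1) were lower by 2-fold or more. The background was similar: 7.37% of the 8304 genes with a ratio were that much higher and 9.92% that much lower, against 8.82% and 5.88% of the 34. Their median log2 ratio was 0.10, against 0.05 over all genes. At 1.5-fold, 10 were higher and 6 lower, which is 29.4% and 17.6% of the 34, beside 19.4% and 18.6% of all genes. Signal strength moved with these calls. When the 8304 genes were split by mean signal into 3 groups of equal size, 23.2% of the dimmest group were past 2-fold in either direction, 15.9% of the middle one and 12.8% of the brightest. Casp4, Bbc3, Ripk3 and Apaf1 all lay in the dimmest group, which held 8 of the 34, and Cflar in the middle one. Bcl2, Bmf and Fas were under the floor on both arrays and have no ratio.

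**Figure D1:**
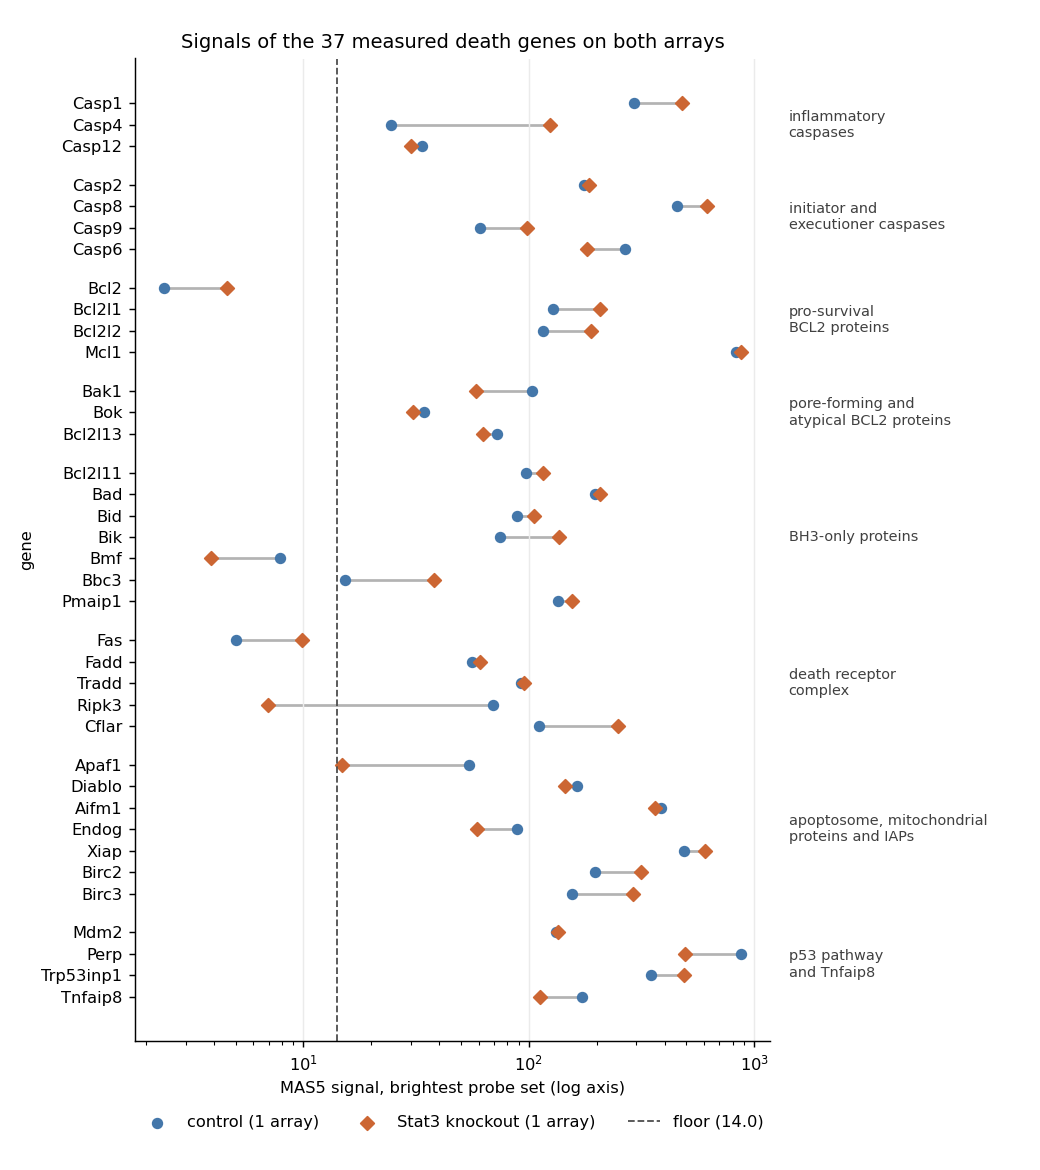
MAS5 signal (log axis) of the brightest probe set of each of the 37 measured genes in the control (circles) and the Stat3 knockout (diamonds), 1 array each, grouped by role; the dashed line is the floor of 14.0. The longest gaps belong to Casp4 (24.6 and 124), Ripk3 (69.3 and 6.96) and Apaf1 (54.4 and 14.8), while Mcl1 (827 and 870.3) and Mdm2 (132 and 135) overlap.

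**Figure D2:**
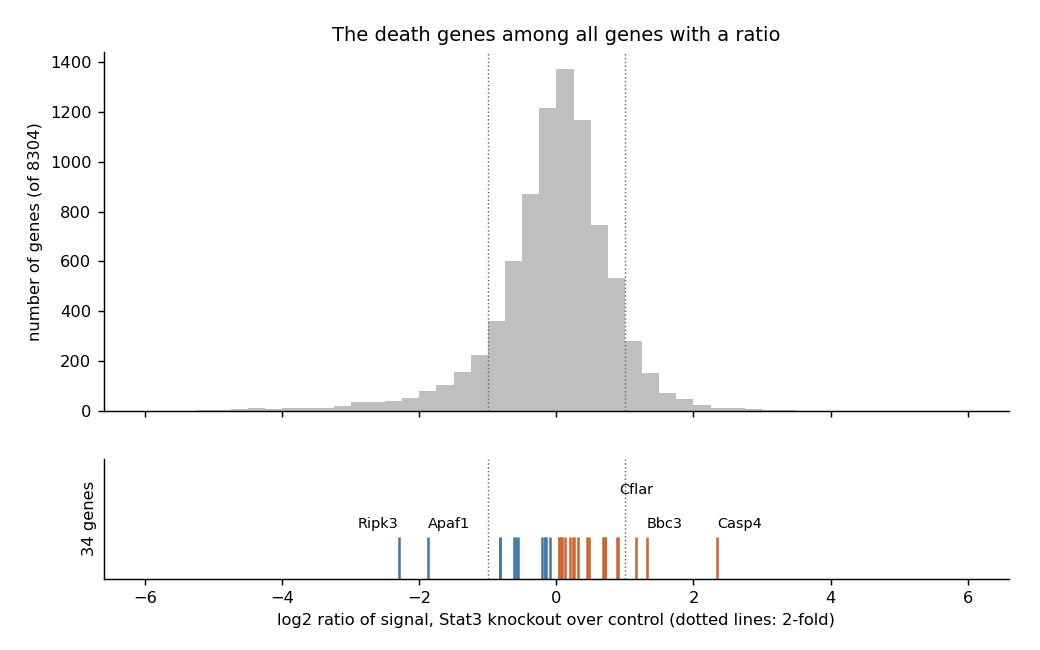
Number of genes in each step of log2 ratio (knockout over control) for all 8304 genes with a ratio, above, and the 34 death genes as single lines, below; dotted lines mark 2-fold. Of the 34, 29 lie between the dotted lines, as most genes do.

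To place the genes that differed most on the genome, the 120 bases before the most upstream RefSeq start site are shown for those past 2-fold, and for Casp1 and Casp12, which lie next to Casp4 with no other protein-coding gene between them. These stretches, in GRCm38.p6, are chr9:5298397-5298516 (plus strand), chr9:5308729-5308848 (plus strand), chr9:5345356-5345475 (plus strand), chr1:58711371-58711490 (plus strand), chr7:16309463-16309582 (plus strand), chr10:91082744-91082863 (minus strand) and chr14:55788858-55788977 (minus strand). Each is written 5′ to 3′ on the strand of its gene, and capitals mark a match to the STAT site TTCNNNGAA, the interferon response core (GAAANN followed directly by GAAA) or the p53 decamer, the short unit of p53 response elements.
Casp1: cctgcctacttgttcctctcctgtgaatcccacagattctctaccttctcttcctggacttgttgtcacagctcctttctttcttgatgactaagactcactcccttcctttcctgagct
Casp4: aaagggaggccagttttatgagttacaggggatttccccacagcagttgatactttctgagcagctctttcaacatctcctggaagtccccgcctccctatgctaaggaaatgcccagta
Casp12: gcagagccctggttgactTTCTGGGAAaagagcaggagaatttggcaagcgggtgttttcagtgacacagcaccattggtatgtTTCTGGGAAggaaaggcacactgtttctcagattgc
Cflar: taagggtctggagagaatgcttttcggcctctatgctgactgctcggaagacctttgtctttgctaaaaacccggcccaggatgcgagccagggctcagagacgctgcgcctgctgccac
Bbc3: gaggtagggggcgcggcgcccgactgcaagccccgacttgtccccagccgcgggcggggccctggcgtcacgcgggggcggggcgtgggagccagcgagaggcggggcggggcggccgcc
Apaf1: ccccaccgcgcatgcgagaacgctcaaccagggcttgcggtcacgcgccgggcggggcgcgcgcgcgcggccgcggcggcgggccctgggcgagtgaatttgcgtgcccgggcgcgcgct
Ripk3: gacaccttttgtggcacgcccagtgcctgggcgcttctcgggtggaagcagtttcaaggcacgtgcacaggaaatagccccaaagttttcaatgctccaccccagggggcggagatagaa

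In these stretches Casp12 alone held a match, with the STAT site letters TTCTGGGAA at positions -102 and -36 from the start site. The search read both strands of the RefSeq window from 250 bases before to 50 after each start, which was given for 34 of the 40 genes. STAT site letters occurred in Casp12, Fas and Ripk1, that is in 3 of 34 genes, against 9.55% of 27025 genes and 8.30% of 32851 windows. The interferon response core occurred in 2 of 34, Cflar and Ripk1, against 3.99% of genes and 3.44% of windows; in Cflar it read TTTCGGTTTC, on the minus strand, at position 6 after the start. In Ripk1 it overlapped a STAT site match. The p53 decamer occurred in 5 of 34 (Bax, Birc2, Bmf, Mdm2 and Trp53), against 9.55% of genes and 8.36% of windows, and in Mdm2 it read GAACTTGCCT at position -186. A match is a description of letters, not a bound site. The windows also differed in CpG content, the frequency of CG steps relative to the base composition. The ratio of observed to expected CpG was 0.20 for Casp1, 0.38 for Casp4 and 0.25 for Casp12, and 0.79 for Cflar, 0.79 for Bbc3, 1.12 for Apaf1 and 0.49 for Ripk3. Its median was 0.74 over the 34 genes and 0.58 over 17492 protein-coding genes.

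Among the inflammatory caspases, which cut interleukin precursors and the pore protein of pyroptosis, Casp4 stood out. Casp4 encodes the sensor of intracellular bacterial lipopolysaccharide and is known as an interferon-inducible gene. Signals were 24.6 (control) and 124 (knockout), 5.06-fold higher (log2 ratio 2.34), and 0.361% of all genes had a higher ratio. Casp1, the caspase of the canonical inflammasomes, had signals of 293 and 479, 1.63-fold higher. Casp12 had 33.6 and 30.0, and its dimmer probe set 27.1 and 25.1. So the 3 neighbouring genes had 3 different ratios: 2.34 for Casp4, 0.71 for Casp1 and -0.16 for Casp12. Casp4 and Casp1 each rest on 1 probe set. Of the inflammasome and pyroptosis list, 5 of 7 genes had a probe set and 3 a ratio. Past 2-fold were 0 of these 3, beside 17.3% of all genes. Pycard, the adaptor that links inflammasome sensors to caspase-1, had signals of 1037 and 915, and the caspase-1 substrate gene Il18 71.0 and 62.4. Nlrp3 and Aim2, both sensor genes, were under the floor on both arrays.

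Of the apoptotic caspases, 0 of the 4 measured genes passed 2-fold, beside 17.3% of all genes. With 4 genes this count cannot be told from the background. Casp9, the caspase of the apoptosome, had signals of 60.4 and 98.4, or 1.63-fold higher. Its other probe set was under the floor on both arrays, and the mean of both turned the direction, with a log2 ratio of at most -0.56. Casp8, the initiator of the death receptor route, had 453 and 619 (log2 ratio 0.45), and Casp2, an initiator linked to stress and chromosome errors, 175 and 185 (0.08). Casp6, an executioner, was the one with the lower signal in the knockout, 267 and 182 (-0.56).

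Cflar encodes an enzymatically inactive relative of caspase-8 that blocks its activation at death receptors. Cflar had signals of 111 and 248, or 2.24-fold higher. Its other probe sets had 30.7 and 82.3, 28.7 and 51.4, and 10.8 and 23.5, so every Cflar probe set was brighter in the knockout, by log2 ratios from 0.74, a bound, to 1.42.

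The IAP ubiquitin ligase genes Birc2 and Birc3, which are neighbours, were both higher within 2-fold. Birc2 had signals of 196 and 313 (1.59-fold), and Birc3, a known NF-kappa-B target, 155 and 289.7 (1.87-fold). Xiap, the IAP that binds active caspases directly, had 488 and 606 (log2 ratio 0.31) and, in a dimmer probe set, 57.1 and 89.5 (0.65). Of the pro-survival BCL2 genes, Bcl2l1, which encodes BCL-XL, had signals of 127 and 207, or 1.62-fold higher. Its next probe set had 18.7 and 19.6 (log2 ratio 0.07), and another 12.6 and 19.4, under the floor in the control (log2 ratio of at least 0.47). Bcl2l2, which encodes BCL-W, had 116 and 189 (1.63-fold), and its 3 other probe sets were under the floor. Mcl1, a short-lived pro-survival protein, had 827 and 870.3, and its 6 probe sets had log2 ratios between -0.19 and 0.18. Bcl2l1 and Mcl1 are often listed as STAT3 targets. Their brightest probe sets had log2 ratios of 0.70 and 0.07, and Mcl1 had -0.14 with shared probe sets left out. Whether STAT3 acts on either gene here was not tested.

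On the pore-forming side Bax had no probe set, and Bak1 was the gene that was clearly lower. Bak1, one of the effectors that perforate the mitochondrial membrane, had signals of 103 and 58.0, or 1.78-fold lower. Its dimmer probe set had 19.1 and 1.71, under the floor in the knockout. Bok, a related effector, had 34.2 and 30.7, and Bcl2l13, an atypical BCL2 protein of mitochondria, 72.3 and 62.6. All 3 measured genes of this role thus had a ratio below 0, from -0.83 to -0.15, as did 46.6% of all genes. Those of Bok (-0.15) and Bcl2l13 (-0.21) were smaller than the SD of 0.28 between probe sets.

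All 6 BH3-only genes with a ratio had one above 0, as did 53.4% of all genes. Those of Bcl2l11, Bad, Bid and Pmaip1 were only 0.07 to 0.25, under the SD of 0.28 between probe sets. The mean of all probe sets gave -0.06 for Bad and -0.07 for Bid. Bbc3, which encodes the p53-inducible PUMA, had signals of 15.2 and 38.1, 2.50-fold higher, with a control value just over the floor and 1 probe set. Bik, an inducer of death at the endoplasmic reticulum, had 74.2 and 137, or 1.84-fold higher, and its other probe sets 51.2 and 92.1, and 63.5 and 97.6. The 3 Bik probe sets had log2 ratios of 0.62 to 0.88, so they point the same way. Bcl2l11, which encodes BIM, had 96.8 and 115, and its other measured probe sets had ratios of 0.04 to 0.45. Pmaip1, which encodes NOXA, the partner of MCL1, had 134 and 155. Bad, which links survival kinases to BCL-XL, had 196 and 206, and a dimmer probe set of the other sign (158 and 139). Bid, which carries the caspase-8 signal to mitochondria, had 89.0 and 105 and also a dimmer probe set of the other sign (24.4 and 18.6).

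**Figure D3:**
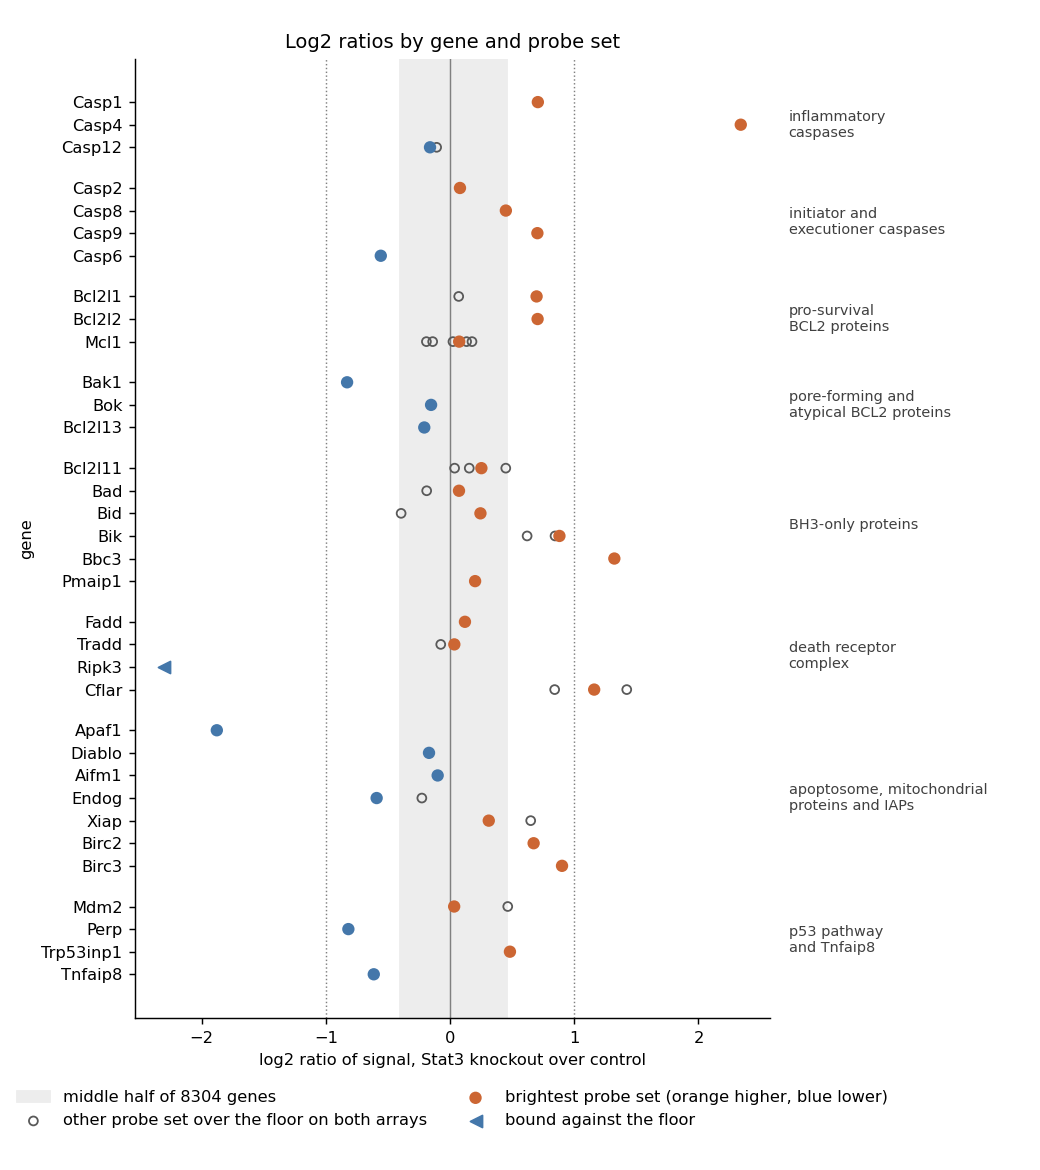
Log2 ratio (knockout over control) of the 34 genes with a ratio, by role: filled points are the brightest probe set, open circles other probe sets over the floor on both arrays, the triangle a bound, and the grey band the middle 50% of all genes (-0.40 to 0.46). Cflar and Bik keep their side in all plotted probe sets, while Bad, Bid, Mcl1 and Tradd have probe sets on both sides of 0.

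In the death receptor complex the lower gene was Ripk3, the kinase that drives necroptosis. Signals were 69.3 (control) and 6.96 (knockout, under the floor), which makes Ripk3 at least 4.93-fold lower, and 2.29% of all genes had a lower ratio. The value rests on 1 probe set. Around it, the adaptor genes Fadd and Tradd were alike: Fadd had 55.8 and 60.6, and Tradd, which serves the tumour necrosis factor receptor, 92.7 and 94.9. Fas, the receptor itself, was under the floor on both arrays (5.04 and 9.87). Of the list of other death receptor and necroptosis genes, 7 had a ratio and 0 passed 2-fold in the brightest probe set, beside 17.3% of all genes. At 1.5-fold, 2 were higher and 0 lower, beside 19.4% and 18.6% of all genes. Tnfrsf10b was 1.72-fold higher (31.9 and 54.8), and 2.16-fold in its dimmer probe set. Cradd was 1.55-fold higher (44.6 and 69.2). Bright genes of this list included Tnfrsf1a, the main receptor for tumour necrosis factor (156 and 127), and Faim, an inhibitor of FAS signalling (156 and 150.4). The ligand genes Fasl and Tnf were under the floor on both arrays.

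The apoptosome scaffold gene Apaf1 was 3.67-fold lower, with signals of 54.4 and 14.8, the second close to the floor (log2 ratio -1.88), and 3.48% of all genes had a lower ratio. Apaf1 is known as a target of E2F factors and of p53. Its other probe set was under the floor on both arrays. Endog, Diablo and Aifm1, the listed genes for proteins released from mitochondria, differed less than Apaf1. Endog, a mitochondrial nuclease gene, had 88.9 and 59.0, or 1.51-fold lower, and 58.3 and 49.8 in its other probe set. Diablo, which encodes the IAP antagonist SMAC, had 163 and 145, and Aifm1, a flavoprotein that also serves the respiratory chain, 387 and 361. Cycs, which encodes cytochrome c, the partner of APAF1, belongs to the list of other execution genes and was 2.64-fold lower (2223 and 841), with 3.61-fold and 3.10-fold in its other probe sets. In that list, 2 of 6 members passed 2-fold, both downwards, beside 9.92% of all genes. The other was Birc5, which encodes the mitotic protein survivin, at 29.4-fold lower (674 and 22.9). Birc6, a giant IAP gene, had 189 and 215, and Dffa, which encodes the inhibitor of the caspase-activated DNase, 65.2 and 51.3.

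The p53 genes had no common direction. Mdm2, the ubiquitin ligase that degrades p53 and is itself a p53 target, had signals of 132 and 135, and 60.5 and 83.5 in a dimmer probe set. Perp, a p53 and p63 target that also builds desmosomes, had 870.0 and 493, or 1.76-fold lower. Trp53inp1, a p53-inducible stress gene, had 350 and 488 (log2 ratio 0.48). Tnfaip8, induced by tumour necrosis factor, had 171 and 112, or 1.53-fold lower. Of the list of other p53 targets and regulators, 17 of 22 had a ratio, and the median was 0.10. In this list 2 passed 2-fold upwards and 2 downwards, 11.8% each way, beside 7.37% and 9.92% of all genes. Sesn1, which restrains growth signalling under stress, was 2.87-fold higher (133 and 381), with 4.63-fold and 2.76-fold in its other probe sets. Btg2, an antiproliferative gene, was 2.31-fold higher (602 and 1388) and 1.90-fold in its other probe set.

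In the opposite direction, Gadd45a, a growth arrest and DNA damage gene, was 3.42-fold lower (414 and 121), and Ddit4, an inhibitor of mTOR signalling, 3.07-fold lower (492 and 160). The bright genes within 2-fold were Ccng1, the cyclin G1 gene (1476 and 2726, and past 2-fold in its dimmer probe sets, at 2.05-fold and 2.31-fold), and Ei24 (556 and 711). Aen was 1.99-fold lower (147 and 74.0), and 2.05-fold in a dimmer probe set. Cdkn1a was 1.61-fold lower (35.1 and 21.8), and at least 2.08-fold in a dimmer probe set. On the higher side, Rrm2b was 1.68-fold higher (109 and 183). Sesn2 was 1.62-fold higher (48.8 and 79.3), and 1.80-fold in its other probe set. At 1.5-fold, 5 genes of this list were higher and 4 lower, or 29.4% and 23.5%, beside 19.4% and 18.6% of all genes. The 4 genes past 2-fold in this list thus lay on both sides. In the list of other caspases and BCL2 relatives, 5 genes had a ratio. Bnip3, a hypoxia-inducible mitophagy gene, was 2.75-fold higher (92.3 and 254), and Bnip2 and Bnip1 had 235 and 239.5, and 102 and 113. Over all these lists, which were chosen by role, 38 of 58 genes had a ratio, of which 3 passed 2-fold upwards and 4 downwards, which is 7.89% and 10.5%, beside 7.37% and 9.92% of all genes. The median was 0.07.

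**Figure D4:**
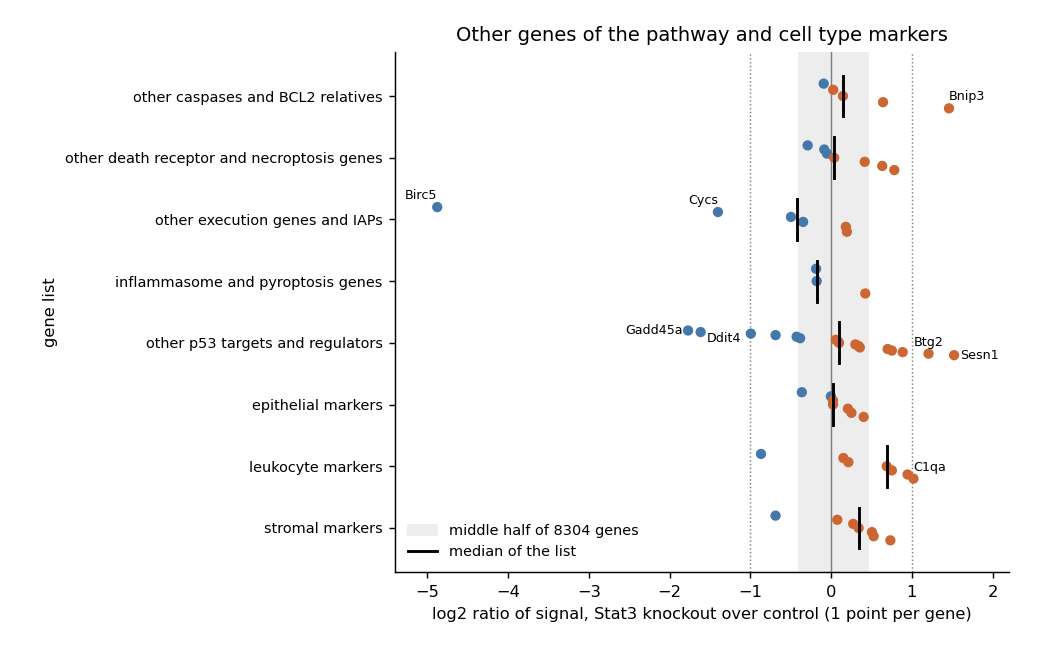
Log2 ratio (knockout over control) of each gene of the other pathway lists and of the cell type markers, 1 point per gene with a ratio; black bars are list medians and the grey band the middle 50% of all genes. Birc5 (-4.88) lies farthest out, epithelial markers centre on 0.02 and leukocyte markers on 0.69.

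As a check of the labelled cell type, the 7 measured epithelial markers, among them Krt8 and Cdh1, were all over the floor. They summed to 19185 (control) and 20480 (knockout), 1.07 times as much. Some markers of other cells were also over the floor, and the stromal ones included bright genes. Dcn had signals of 1235 and 1753, and Col3a1 570 and 721. Both lay above the dimmest epithelial marker, Wnt7a (273 and 277), and below the other epithelial markers. The 15 leukocyte markers with a probe set summed to 519 and 731, 1.41 times as much. Lyz2 (154 and 296) had the largest difference in signal among them. Of the 7 with a ratio, 6 were above 0, as were 53.4% of all genes, with a median log2 ratio of 0.69. Past 2-fold was 1 of the 7, beside 17.3% of all genes. C1qa, a macrophage gene, had the highest of these ratios (33.2 and 67.4, log2 ratio 1.02). Lyz2, Csf1r and Adgre1 were 1.93-fold, 1.68-fold and 1.61-fold higher. Cd68, a macrophage gene like C1qa, was the only one of the list with a ratio below 0 (81.1 and 44.4). Markers of T cells (Cd3e, Cd3g, Cd8a), B cells (Cd79a), cytotoxic cells (Nkg7, Gzmb) and neutrophils (S100a8, Itgam) were under the floor on both arrays. The 8 stromal markers summed to 2566 and 3542, 1.38 times as much. Of the 7 with a ratio, 6 were above 0 and 0 passed 2-fold, beside 53.4% and 17.3% of all genes. The vessel markers summed to 39.7 and 40.7, and the muscle markers to 113 and 79.8; in each list 3 of 4 genes were under the floor on both arrays, and the remaining ones, Cdh5 and Acta2, had log2 ratios of -0.20 and -0.41. Caspases, Cflar and the IAP genes are also expressed in leukocytes and stroma; the part of these cells in the ratios was not tested.

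The calls near the floor depended on where it was set. With a floor at the 60th percentile, Cflar alone of the 34 stayed past 2-fold, Casp4 had a log2 ratio of at least 0.95 and Ripk3 of at most -0.11, and Bbc3 and Apaf1 had no ratio. With the floor value added to both signals Bbc3 had 0.83, within 2-fold. With the mean of all probe sets Apaf1 was under the floor in the knockout, and its bound was a log2 ratio of at most -0.56. Cflar kept a ratio between 1.07 and 1.22 under all 9 alternatives of scaling, floor and probe set. The other floors, no floor and leaving out shared probe sets did not alter the signals behind that ratio.

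**Figure D5:**
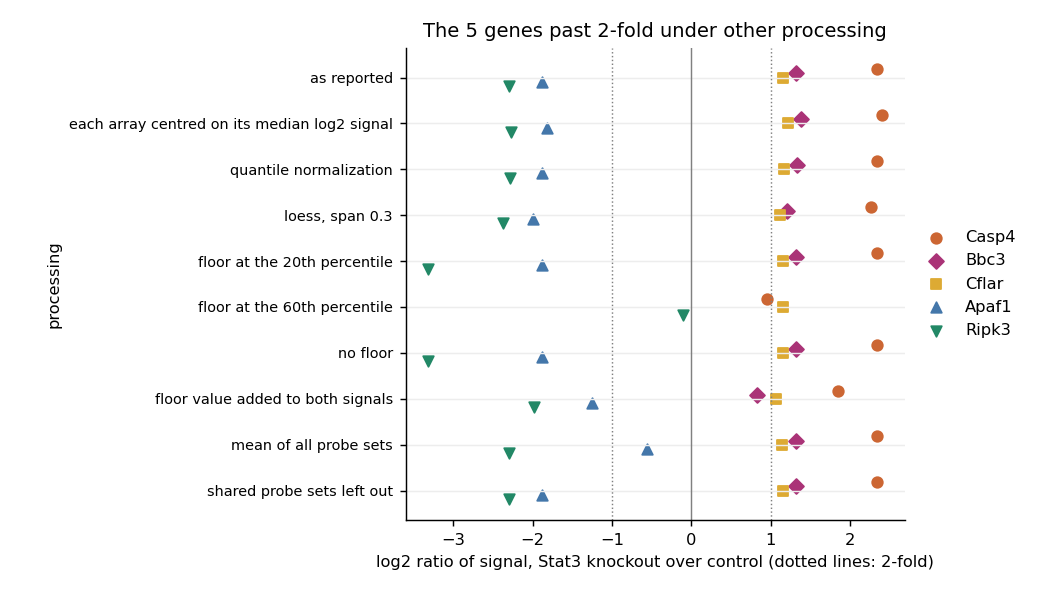
Log2 ratio (knockout over control) of the 5 genes past 2-fold as reported and under 9 other settings of scaling, floor and probe set; dotted lines mark 2-fold a missing point means no ratio, and Ripk3 in each setting with a floor at the 40th or 60th percentile, Casp4 at the 60th percentile and Apaf1 with the mean of probe sets are bounds. No point changes side of 0, and Cflar is the gene that stays beyond its dotted line in every setting shown.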

How the data were processed

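Total RNA was labelled (100 ng per array) and hybridised to 2 arrays. Per the labels' protocols, epithelium was freed with trypsin and squeezing; although the RNA extraction label speaks of human stromal cells, the organism and cell type labels were followed. The authors deposited 1 intensity per probe set and array; per the submitters' processing notes, MAS5 and Affymetrix Expression Console 1.1 were used. The deposited intensities had a trimmed mean of 150.1 on both arrays, so they were taken as scaled. Detection calls were not used here.

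Of 22690 probe sets, 20380 were paired with 1 gene by the platform annotation; symbols were updated by gene ID through RefSeq (GRCm38.p6), which matched 20351. No probe set of several genes named a listed gene. Signals were floored at the 40th percentile of signals that are not controls; 8304 genes received a log2 ratio, without a pseudocount. Ratios were computed in python 3.11.15 (numpy 2.4.6, pandas 2.3.3) and checked on simulated data. Promoter windows came from RefSeq (GRCm38.p6); 1676 of 1676 overlapping windows of opposite strands were reverse complements, so sequences are on the gene's strand.

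The members and lists were chosen with earlier results of these data known. Named were all 40 genes by role. From the other lists, genes past 2-fold and the 2 brightest others were named. A few more were given by signal, by ratio or because they were under the floor, chosen after their values were seen. Alternatives were median centring, quantile normalization, loess (span 0.3), floors at the 20th and 60th percentile, no floor, the floor added, the mean of probe sets, shared probe sets left out, and limits of 1.5-fold and 3-fold. Protein sequences were not used here.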

Additional observations from a re-analysis of the deposited data

How the results depend on the processing

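Under the 9 alternatives of scaling, floor and probe set, 279 of 296 ratios of single genes moved by less than the SD between probe sets (0.28), and 17 by more. Many of these could not move. A gene over the floor on both arrays keeps its ratio with a lower floor or none, and a gene with 1 probe set when probe sets are averaged. The count is therefore no measure of how stable the ratios are. The 3 scalings left the same 5 genes past 2-fold. With a floor at the 60th percentile the counts were 1 higher and 0 lower of 29, beside 5.61% and 7.27% of all genes. A 1.5-fold limit gave 10 higher and 6 lower of 34, beside 19.4% and 18.6% of all genes. A 3-fold limit gave 1 higher and 2 lower of 34. The share of all genes past 3-fold was not computed, so these counts cannot be read against the background. In the other pathway lists, 9 of 38 genes were at least 1.5-fold higher, beside 19.4% of all genes. At least 3-fold higher were 0 of 38, again without a share of all genes. At 2-fold, 5 of 43 were higher with a floor at the 20th percentile, 7 of 46 with no floor and 5 of 33 without shared probe sets. The share of all genes that much higher was 10.00%, 15.5% and 7.87% in these settings. Ripk3 had a ratio of -3.31 with no floor. With the mean of all probe sets, which brings in probe sets under the floor, Birc3 had 1.58, and Apaf1, Casp9 and Bak1, then under the floor in the knockout, had bounds of at most -0.56, -0.56 and -1.66. Of the 34 genes, 7 changed sign in at least 1 alternative, Casp9 with the largest reported ratio (0.70), and 27 in none of those run. No paired analysis was possible because each group has 1 array, and no replicate could be left out. Detection limits Bcl2, Bmf and Fas, whose signals were under the floor.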
